A study of Brassica rapa subsp. pekinensis with 6 samples.

Results

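Buds of wild-type Chinese cabbage ('FT') held a set of abundant transcripts whose levels were at most 1/16 as high in buds of the female-sterile mutant *fsm*. A gene was counted as a member when its mean level over the 3 FT libraries was at least 50 RPKM (read counts scaled by gene length and by the summed count of the library) and its mean over the 3 *fsm* libraries was at most 1/16 of that. Of the 35616 genes with at least 1 read, 171 met both limits, and 164 of them are described here after 7 were left out by name. 'FT' is a line of doubled haploid plants (*Brassica campestris* ssp. *pekinensis*), and *fsm* is a single mutant line that arose from it after isolated microspore culture and EMS mutagenesis, with pistil abortion inherited as a single recessive nuclear gene. Whole flower buds were sampled at full bloom from several plants of each line. The study takes the genetic background of FT and *fsm* to be highly alike. It also lists SNPs detected in only one of the lines, and a larger share of reads mapped in *fsm* than in FT. No batch is stated, so the line and any batch cannot be told apart. The methods also speak of pooling RNA of the replicates before library construction, so the spread between libraries may be partly technical. The deposited read counts summed over genes to 24990396 to 29366538 per library. These sums are larger than the mapped reads that the study gives for the same libraries, so a sum is not a number of separate reads, and how reads were assigned to genes was not tested.

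The members were chosen by the same FT and *fsm* values that are given below, so the difference between the lines is a description of the selection and carries no test. Since whole buds of all sizes on an inflorescence were mixed, fewer cells of a type, another mix of bud stages and less RNA per cell cannot be told apart. As background, the late male gametophyte of flowering plants stores transcripts for tube growth, among them enzymes that loosen or stiffen pectin in the wall, proton pumps and sugar carriers that energise the tip, calcium-binding proteins of the polcalcin family, actins and secretion proteins. Many such transcripts are used in mature pollen and in hardly any other cell of the flower. The study reported small amounts of pollen in *fsm* stamens, and this pollen was viable by staining. It also set seed on FT, with fewer seeds per bud than selfed FT. Of the 164 members, 151 carried a protein description from the study's annotation of changed genes, and 11 of these descriptions name pollen. The set is therefore called by its rule and not by a cell type.

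In the FT libraries the members ran from 50.1 to 1278 RPKM, with a median of 128.0 RPKM and quartiles of 78.0 and 235 RPKM. In the *fsm* libraries they ran from 0.307 to 47.8 RPKM, with a median of 4.94 RPKM. The FT level was 22.1-fold the *fsm* level at the median member, with quartiles of 18.0-fold and 27.6-fold. The members made up 3.55% of the summed read counts in F1, 3.56% in F2 and 3.54% in F4. They made up 0.155% in M1, 0.164% in M2 and 0.177% in M3. The share thus averaged 3.55% ± 0.0115 over the FT libraries and 0.165% ± 0.0111 over those of *fsm* (± SD, n = 3 libraries per line). Among the 1000 most abundant genes of FT, 69 were members, and none of the 1000 most abundant genes of *fsm* was one.

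**Figure D1:**
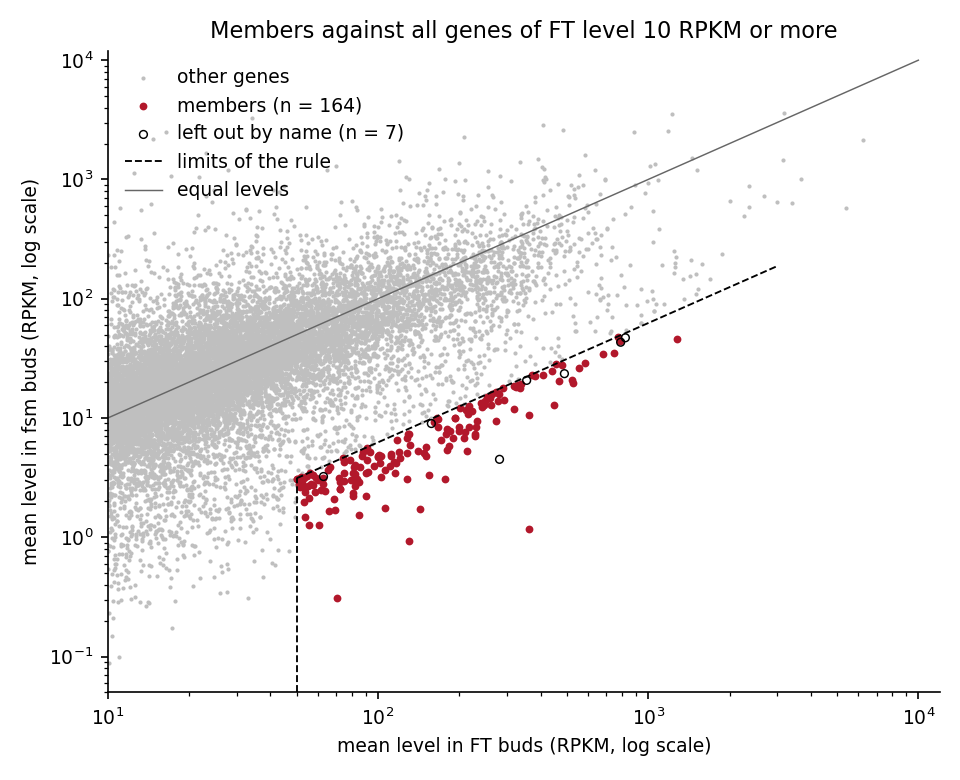
Mean level in *fsm* buds against mean level in FT buds (RPKM, both axes logarithmic) for genes with a mean FT level of at least 10 RPKM and a mean *fsm* level above 0.05 RPKM. Red points are the 164 members, open circles the 7 genes left out by name, and the dashed lines are the limits of the rule. The members form the lower edge of a continuous cloud, with 196 genes of at least 50 RPKM lying between 8-fold and 16-fold.

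In the edgeR fit over all genes, 2.34% of the 35616 genes tested had fewer reads in *fsm* at an adjusted p of at most 0.001 and a log2 fold change of -4 or below, and so did 3.98% of the 3966 genes with an FT mean of at least 50 RPKM. By construction 151 of the 164 members met that call, and nothing is read from the count. The 13 members that did not were the same 13 that had no protein description, and their folds reached at most 16.6, against at least 16.8 for those that did. Descriptions were at hand only for genes that the study had called changed at the same thresholds, so both traits follow from folds near the limit. With total counts instead of TMM, all 164 members passed. Every FT library lay above every *fsm* library for all 164 members, as it did for 39.3% of all genes and for 64.6% of the genes with an FT mean of at least 50 RPKM. The other 3802 genes with an FT mean of at least 50 RPKM had a median log2 ratio of *fsm* to FT of -0.47.

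The ratio limit cut through a continuous distribution. Bra032660 at 16.10-fold and Bra001309, also at 16.10-fold, lay just inside it. Just outside were Bra038881 with 61.5 RPKM in FT and 3.86 RPKM in *fsm*, which is 15.9-fold, and Bra005943 with 248 and 15.6 RPKM, again 15.9-fold. At the limit on the FT level, Bra032958 with 50.1 RPKM and Bra040059 with 50.3 RPKM were just inside. Bra026994, described as a rho GDP-dissociation inhibitor, reached 49.9 RPKM, and Bra005667, described as a VHS domain protein, reached 49.7 RPKM. From 15-fold to 16-fold there were 16 genes of at least 50 RPKM, and from 16-fold to 17-fold there were 21, counted before the genes left out by name were removed.

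Proteases and acid phosphatases held the most abundant member. Bra000794, an aspartyl protease family gene whose relatives cleave proteins at acid pH, stood at 1274, 1266 and 1294 RPKM in F1, F2 and F4, the rank of 25 among all genes of FT. In M1, M2 and M3 it stood at 42.9, 48.2 and 47.7 RPKM. The libraries of each line lay close together, and the 2 lines were far apart, at 27.6-fold. Another aspartyl protease gene with the same description, Bra029492, had 161 RPKM in FT and 17.4-fold less in *fsm*. Purple acid phosphatases release phosphate from organic compounds. Their 6 members were PAP6 (Bra010554 and Bra017755), PAP11 (Bra037236 and Bra039919), PAP14 (Bra004500) and PAP21 (Bra028534), which ranged from 58.5 to 244 RPKM in FT and from 18.5-fold to 30.6-fold.

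Pectin enzymes and their inhibitors counted 8 members with a median of 24.9-fold. Bra007665 encodes VGDH2, a homologue of the pectin methylesterase VANGUARD1 that in *Arabidopsis* acts in the growing pollen tube. It was measured at 798, 740 and 712 RPKM in F1, F2 and F4. In M1, M2 and M3 it was measured at 31.9, 34.4 and 39.5 RPKM. A second VGDH2 gene, Bra003491, had 210 ± 12.8 RPKM in FT and 7.60 ± 0.746 RPKM in *fsm* (SD, n = 3 each). The abundant gene thus kept 21.3-fold and the less abundant one 27.7-fold between the lines. The pollen-specific polygalacturonase Bra010872, of a family that cuts the pectin backbone, was at 480 ± 34.5 RPKM in FT and 27.9 ± 2.60 RPKM in *fsm*. The group also held the opposing side of pectin chemistry, with the invertase or pectin methylesterase inhibitor genes Bra017515 at 29.1-fold and Bra024974 at 26.5-fold and the polygalacturonase inhibitor gene Bra034773 at 23.2-fold. A gene described as a lyase, Bra010624, stood at 319 RPKM in FT and 12.0 RPKM in *fsm*, and reads covered 56.9% of its coding length in FT and 56.8% in *fsm*.

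Other wall and surface proteins formed 13 members with the lowest median of the role groups, 20.2-fold. BGAL7 (Bra002325), a beta-galactosidase that trims galactose from wall polymers, was at 546, 517 and 498 RPKM in FT and at 18.7, 20.6 and 22.8 RPKM in *fsm*. The order of the libraries within each line differed by less than the distance between the lines. AGP23, a short arabinogalactan protein backbone, was present among the members as a pair of genes of 186 bases of coding length each. A further arabinogalactan protein gene named by the study is among those left out by name. Bra016902 had 350, 335 and 326 RPKM in FT against 17.6, 15.3 and 25.05 RPKM in *fsm*, and Bra014611 had 218, 239 and 228 RPKM against 5.31, 7.54 and 8.41 RPKM. The first was 17.5-fold and the second 32.2-fold. The 3 genes of the pollen Ole e 1 allergen and extensin family, secreted wall proteins, ranged from 16.9-fold to 20.7-fold. The SKU5-like genes sks11 (Bra034680) and sks12 (Bra002825), relatives of multicopper oxidases, stood at 62.8 and 117 RPKM in FT, and the second at 27.8-fold.

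**Figure D2:**
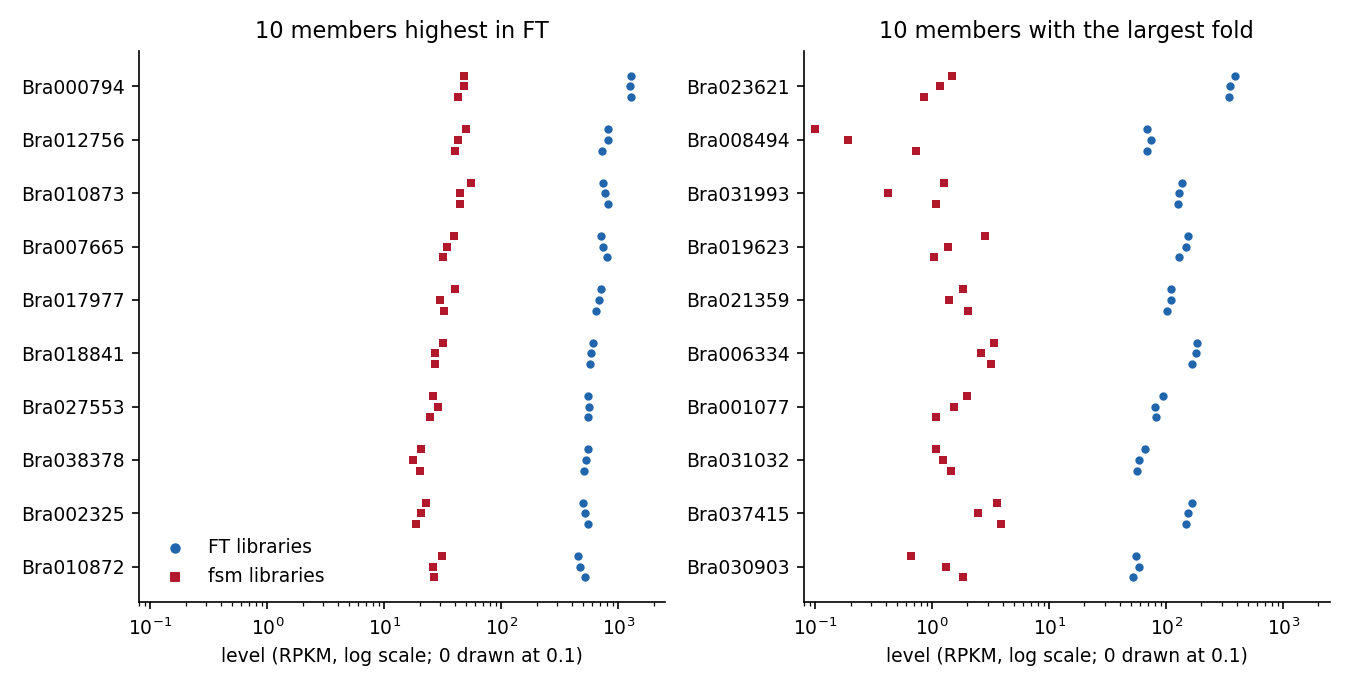
Level in each of the 6 libraries (RPKM, logarithmic axis, a value of 0 drawn at 0.1) for the 10 members highest in FT and the 10 members with the largest fold. Blue circles are FT libraries and red squares *fsm* libraries. The *fsm* points of the abundant members cluster tightly near 17.7 to 55.1 RPKM, while those of the members with the largest fold spread between 0 and 3.90 RPKM.

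Pumps, transporters and channels counted 11 members with a median of 28.7-fold. Plasma membrane proton pumps set the gradient that drives sugar uptake, and 3 of their genes were members. AHA6 (Bra013168) was at 331 ± 7.93 RPKM in FT and 19.1 ± 2.90 RPKM in *fsm*, which is 17.3-fold. The AHA9 gene Bra035163 was at 272 RPKM and 28.7-fold, and the other AHA9 gene, Bra003576, at 128.2 RPKM and 42.0-fold. Sugar and inositol carriers made up 5 of the 11 members. The monosaccharide transporter gene Bra018841 had 570, 578 and 603 RPKM in FT and 27.4, 27.3 and 31.8 RPKM in *fsm*. Its partner Bra039642 had 351, 353 and 385 RPKM in FT and 11.9, 9.30 and 10.4 RPKM in *fsm*. The first was 20.3-fold and the second 34.4-fold. SUC1 (Bra007991), a proton-coupled sucrose carrier, was at 253 RPKM and 16.8-fold, STP4 (Bra001766), a hexose carrier, at 121 RPKM and 26.2-fold, and the inositol transporter INT4 (Bra038469) at 182 RPKM and 31.1-fold. Of the vacuolar water channels, TIP1;3 (Bra037415) stood at 155 ± 9.75 RPKM in FT and 3.30 ± 0.760 RPKM in *fsm*, and TIP5;1 (Bra018148) at 60.1 and 3.05 RPKM.

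Calcium and calmodulin binding held only 6 members but had the highest median of the role groups, at 58.3-fold against 22.1-fold for all members. APC1 (Bra023621), a pollen calcium-binding protein with EF-hand domains, was at 347, 348 and 390 RPKM in F1, F2 and F4. In M1, M2 and M3 it was at 0.851, 1.17 and 1.48 RPKM, which rest on 6, 8 and 10 reads. The FT mean was 310-fold the *fsm* mean, with an exact Poisson interval of 208 to 483 at 95% on the *fsm* reads. Polcalcin Bra n 2 (Bra031993), a calcium-binding pollen allergen, was at 126, 129 and 136 RPKM in FT and at 1.08, 0.418 and 1.27 RPKM in *fsm*. Its 20 *fsm* reads gave 141-fold with an interval of 91.4 to 231. The polcalcin genes Bra021359 and Bra001077 were 60.7-fold (44.2 to 85.8) and 55.8-fold (39.8 to 81.1). These intervals cover counting error only and take each count as a separate read. The summed counts exceed the mapped reads, so the intervals may be too narrow. The other members of the group had smaller folds, with a caleosin-related gene (Bra012369), of a family of lipid-body proteins that bind calcium, at 31.4-fold and GAD5 (Bra021272), a calmodulin-binding glutamate decarboxylase, at 21.1-fold.

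**Figure D3:**
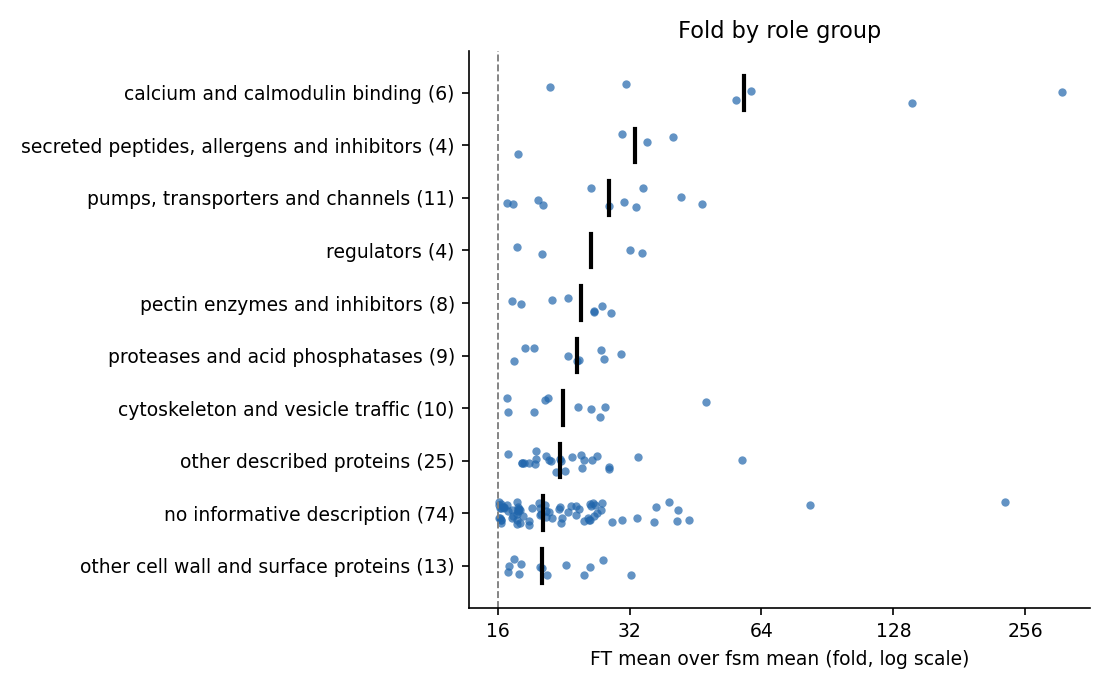
FT mean over *fsm* mean (fold, logarithmic axis) for each of the 164 members by role group, with the number of members in parentheses. Each point is a gene, black bars are group medians and the dashed line is the limit of 16-fold. Calcium and calmodulin binding has the highest median, 58.3-fold, and the 74 members with no informative description have a median of 20.3-fold.

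Cytoskeleton and vesicle traffic counted 10 members. The actin genes were 4 of them. ACT3 was represented by Bra005178 at 265 RPKM and 16.9-fold and by Bra000010 at 192 RPKM and 19.4-fold, and ACT12, an actin of reproductive tissue in *Arabidopsis*, by Bra033819 at 81.6 RPKM and 20.8-fold and Bra018210 at 72.1 RPKM and 28.1-fold. Their neighbours in function were the class XI myosin XIE (Bra027968) at 16.8-fold and 3 rab GDP-dissociation inhibitor genes, which recycle the GTPases of vesicle traffic, at 24.4-fold to 27.4-fold. The tetraspanin gene Bra031032 was set apart at 56.1, 59.0 and 66.0 RPKM in FT and 1.46, 1.24 and 1.09 RPKM in *fsm*, or 47.9-fold.

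Secreted peptides, allergens and inhibitors held 4 members. The cystatin-like gene Bra005625, of a family that inhibits cysteine proteases, was at 439, 436 and 470 RPKM in FT and at 13.0, 13.4 and 11.9 RPKM in *fsm*. LCR57 (Bra021822), a small cysteine-rich secreted protein, was 40.2-fold, a gene of the allergen V5/Tpx-1 family (Bra039032) 30.8-fold, and RALFL17 (Bra022922), a RALF-like signal peptide, 17.8-fold. Regulators were few, with 4 members of 56.5 to 102 RPKM in FT, and none of them carried the description of a transcription factor. They were a receptor-like kinase-related gene (Bra013666, 34.2-fold), 2 nucleic acid binding genes (Bra036129 at 32.01-fold and Bra040393 at 17.7-fold) and a probable protein phosphatase 2C (Bra001589, 20.2-fold).

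The 25 other described members spread over metabolism. A type 2 peroxiredoxin gene (Bra038378), of an enzyme that reduces peroxides, was at 506, 527 and 550 RPKM in FT and at 20.2, 17.7 and 20.7 RPKM in *fsm*. The FAD-binding domain genes Bra027553 and Bra027550 were at 554 and 466 RPKM in FT, with 21.0-fold and 22.7-fold. S-adenosyl-L-methionine decarboxylase (Bra006334), which supplies the aminopropyl donor for polyamines, had the largest fold of this group at 57.7, with 167, 179 and 183 RPKM in FT and 3.18, 2.59 and 3.40 RPKM in *fsm*. Catalase 1 (Bra025833), which breaks down hydrogen peroxide, followed at 33.4-fold. Housekeeping functions were also represented, with the 40S ribosomal protein genes S15 (Bra006024, 185 RPKM, 23.7-fold) and S28 (Bra005784, 75.1 RPKM, 21.7-fold) and the epsilon chain of the mitochondrial ATP synthase (Bra014294, 131 RPKM, 22.2-fold). These 3 genes were singled out after their values were seen.

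No informative description was at hand for 74 members, which held 44.2% of the summed FT level of the set. Of these, 61 had a hit described only as hypothetical, predicted, unknown or unnamed. The other 13 had no hit at hand, since hits were listed only for genes that the study had called changed. The 74 members included 3 of the 5 members ranked among the 100 most abundant genes of FT. Bra012756 was at 728, 809 and 824 RPKM in FT and 40.1, 42.7 and 49.6 RPKM in *fsm*. Bra010873, which the study's annotation links to the cutting of O-glycosyl bonds and to organisation of the external encapsulating structure, was at 823, 766 and 735 RPKM in FT and 44.0, 44.3 and 55.1 RPKM in *fsm*. Bra017977 was at 681 ± 30.0 RPKM in FT and 34.2 ± 5.29 RPKM in *fsm*. Among the members with the largest folds, Bra008494, with a coding length of 186 bases, was at 69.0, 74.2 and 68.8 RPKM in FT and at 0.732, 0.189 and 0 RPKM in *fsm*, from 4, 1 and 0 reads. Its 230-fold had a counting interval of 98.7 to 709, which also takes each count as a separate read. The fold of Bra008494 became 749 without M1. It was the only member whose fold moved by over 1.5 times when 1 library was left out. Bra019623 was at 129, 148 and 153 RPKM in FT and 1.03, 1.36 and 2.83 RPKM in *fsm*, or 82.5-fold. Bra030903 was at 55.3 RPKM and 43.8-fold.

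Members that shared both a database hit and a description allowed a look within families. There were 20 such pairs over 37 members. The copies differed in FT level by 1.52-fold at the median and by up to 7.92-fold, for the aspartyl protease pair. Their FT to *fsm* folds differed by 1.19 times at the median and by at most 1.84 times, for the AGP23 pair. Both quantities were bounded by the rule, the fold more narrowly than the level, so these differences describe the pairs and nothing is read from their sizes. The copy with the higher FT level had the larger fold in 2 pairs, the aspartyl protease pair and the pair Bra033060 and Bra033061, and the smaller fold in the other pairs. In 7 pairs the 9 ratios of single FT to single *fsm* libraries of the copies did not overlap, among them those of AGP23, AHA9, ACT12, PAP6 and the monosaccharide transporters. The deposited counts are named as unique reads, and how reads that fit several near-identical copies were treated was not tested, so the levels of close copies are uncertain to that extent.

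**Figure D4:**
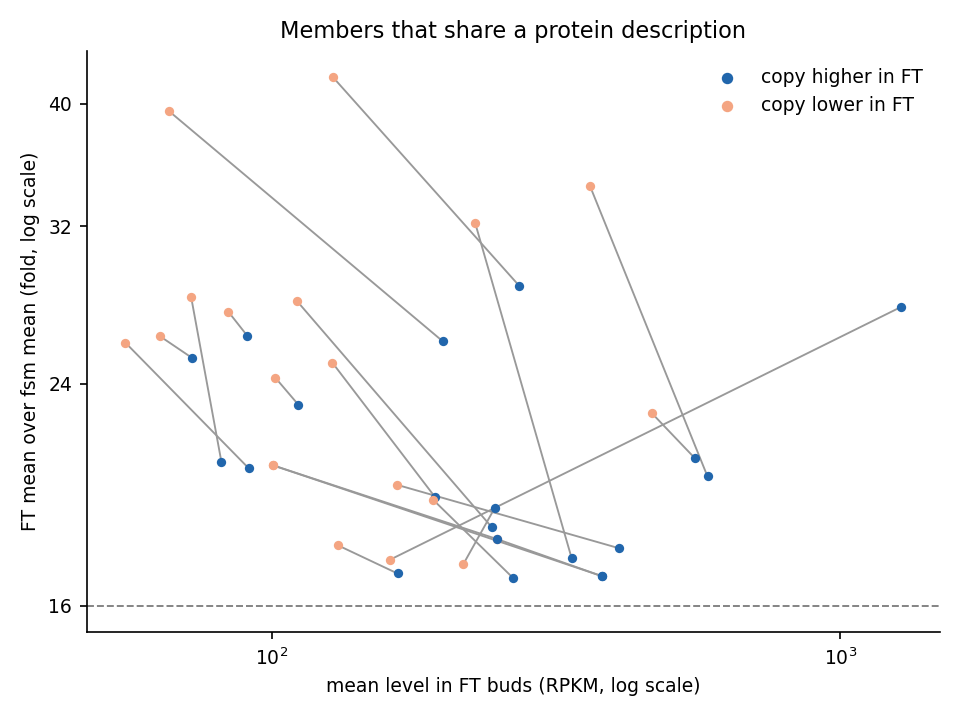
FT mean over *fsm* mean (fold, logarithmic axis) against mean FT level (RPKM, logarithmic axis) for the 20 pairs of members that share a database hit and description, each pair joined by a line. Blue points are the copies higher in FT and orange points those lower in FT. Most lines slope down to the right, and the aspartyl protease pair, which reaches 1278 RPKM, slopes up.

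A further 13 genes shared the hit and description of a member but were outside the set. The genes left out by name were not looked at here, so a left-out copy that met both limits could not appear. All 13 missed the FT limit, at 1.19 to 44.6 RPKM, and all 13 met the ratio limit. The tetraspanin gene Bra031033 had 1.19 RPKM in FT and no read in any *fsm* library, and the folds of the other 12 ran from 16.6 to 66.4. The ACT12 genes Bra019486, Bra020319 and Bra006719 were at 44.6, 42.2 and 16.96 RPKM in FT and at 27.6-fold, 23.0-fold and 44.2-fold. In the edgeR quasi-likelihood fit 12 of the 13 passed both thresholds after Benjamini-Hochberg adjustment over all genes. Bra027293 did not, with a log2 fold change of -3.98 ± 0.087 (SE), since it missed the limit on the fold change. Descriptions were at hand only for genes that the study had called changed, so copies that did not change are not seen here. These counts are thus not independent evidence of a direction. The study's list was made at the same thresholds. For a copy with fewer reads in *fsm*, meeting the ratio limit and passing were therefore nearly fixed in advance.

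The same list of described genes gave a wider view of each role beyond the members. Without the members and the genes left out by name, it held 1708 genes. Of these, 637 (37.3%) passed with fewer reads in *fsm* and 1005 (58.8%) with more. The removed genes were the members and the left-out genes, of which 7 met both limits of the rule, so the removal lowered the first count. The counts below leave out the same genes. Of the 60 described transporter and channel genes outside the set, 37 (61.7%) passed with fewer and 21 with more. Of 24 described cytoskeleton and traffic genes, 16 (66.7%) passed with fewer and 8 with more. The 193 regulators, with 61 (31.6%) and 126, and the 20 calcium and calmodulin genes, with 5 and 14, leaned to more reads in *fsm*, as the whole list did. So did the genes with no informative description, with 299 and 450, and the other described proteins, with 205 and 369. The 17 other wall and surface genes, with 5 and 9, did as well. In the 3 protease and acid phosphatase genes the counts were 2 and 1, and in the 3 secreted peptide genes also 2 and 1. For the 11 pectin genes outside the set the counts were 5 and 6. Several genes left out by name belong to this role, since the study names them as polygalacturonase or pectinesterase family genes. No lean of the pectin genes is therefore read from these counts. Over all 35616 genes the fit called 2.91% with more reads in *fsm*, which is not comparable with shares of the list, since the listed genes had been selected on the same contrast. The differences between the role groups were not tested.

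Genes listed for late pollen, for pollen coat and tapetum, and for the pistil moved with the lines as well. The part of other cells in the levels of the members was not tested. Of the 21 listed late pollen markers, 18 were members and the other 3 were the ACT12 genes named above. The 18 members were chosen for their drop, so only the 3 others are summed, which gave 103 to 105 RPKM in the FT libraries and 3.15 to 4.46 RPKM in the *fsm* libraries. None of the 21 was at 0 in all *fsm* libraries. The 9 genes listed for pollen coat and tapetum, none of them a member, summed to 48.8 to 55.2 RPKM in FT and 12.4 to 13.3 RPKM in *fsm*. The 7 oleosin genes among them passed with fewer reads and summed to 48.1 to 54.8 RPKM in FT and 1.28 to 1.83 RPKM in *fsm*. The 2 fatty acid reductase genes, described as FAR1 (Bra020195) and FAR6 (Bra003255), passed with more reads. They made up most of the *fsm* sum, with 0.444 to 0.649 RPKM in FT and 11.1 to 12.0 RPKM in *fsm*. The genes of this list were not shown to mark pollen coat or tapetum cells, so no change of those cells is read from them. The 4 genes listed for the pistil were HEC1, PFS2, AGL71 and a temperature-induced lipocalin gene, which the study named as pistil-related among its changed genes. They were not shown to mark pistil cells, and carpel identity genes are not given here. These 4 genes passed with more reads in *fsm*, and summed to 1.502 to 1.584 RPKM in FT and 97.0 to 118 RPKM in *fsm*. The lipocalin gene made up the larger portion of the *fsm* sum with a mean of 90.7 RPKM. All these lists hold only genes that the study had called changed.

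The order of the libraries within a line did not enter the rule. Within *fsm*, 93 of the 164 members were highest in M3 and 77 were lowest in M1, and the medians relative to the line mean were 0.958 in M1, 0.980 in M2 and 1.07 in M3. Of the other 3802 genes with an FT mean of at least 50 RPKM, 32.1% were highest in M3 and 50.6% in M1, so the order of the libraries differed between the members and those genes. Within FT, 90 members were highest in F4 and 104 lowest in F1, with medians of 0.975, 1.001 and 1.016 in F1, F2 and F4. The shift between *fsm* libraries was small beside the distance between the lines, since the median log2 ratio to the FT mean was -4.54 in M1, -4.54 in M2 and -4.40 in M3. With 3 libraries a line and members that may move together, this order was not tested. The coefficient of variation of a member was 4.41% at the median in FT and 12.0% in *fsm*, against 3.84% and 5.45% for the other abundant genes. The median was 159 reads per member and library in *fsm* and 3028 in FT. If each count were a separate read, counting alone would give 7.93% and 1.82% at the median member.

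**Figure D5:**
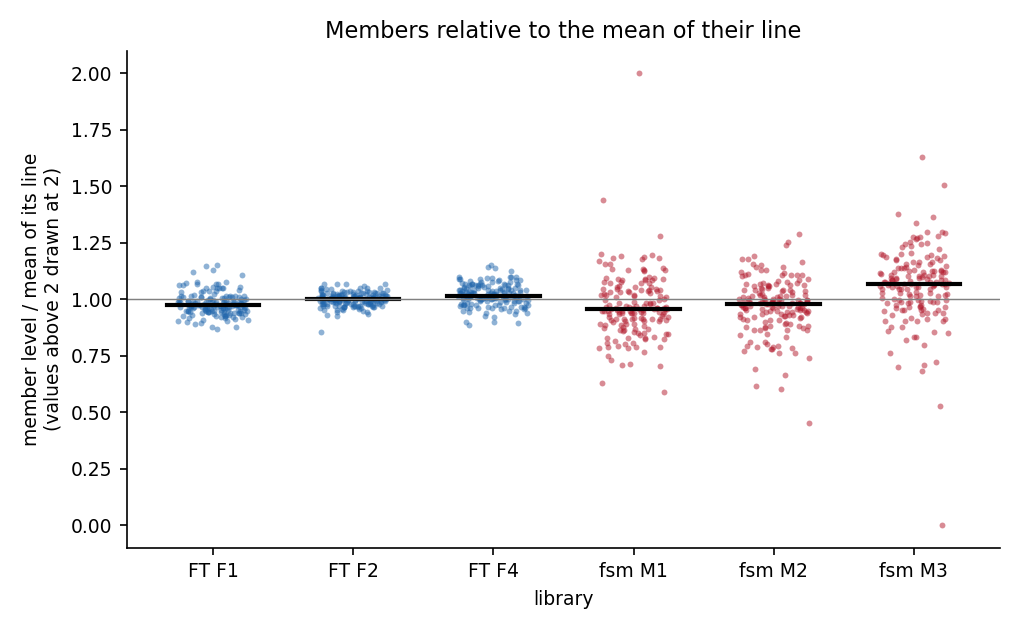
Level of each member in a library divided by its mean over the 3 libraries of the same line, for FT (blue) and *fsm* (red), with values above 2 drawn at 2. Points are the 164 members and black bars the medians, which run from 0.958 in M1 to 1.07 in M3. The *fsm* points are more spread than the FT points.

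Coding length did not enter the rule. The members had a median coding length of 1102.5 bases, against 852 bases for the other 3802 genes of at least 50 RPKM in FT and 1053 bases for all genes. Under 300 bases were 17 members (10.4%), against 4.79% of the other abundant genes and 4.35% of all genes. Over 1500 bases were 29.9% of the members, against 18.4% of the other abundant genes and 27.5% of all genes, so the long end was near the share over all genes. The 17 short members had a median of 30.8-fold and the others one of 21.3-fold. Across the members, the fold had a Spearman rho of -0.15 with the coding length, as a description over 164 genes that share the same 6 libraries. The FT level and the fold are the values that chose the members and are set side by side only as a description. The 15 members of at least 400 RPKM in FT lay between 16.2-fold and 35.1-fold, and the 14 members of at least 40-fold all lay at or below 362 RPKM.

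Reads covered more than 90% of the coding length for 156 members in each FT library, and for 132, 121 and 129 members in M1, M2 and M3. For 8 members the mean coverage in FT was under 90%. PAP6 (Bra017755) was covered at 61.6% in FT and 61.5% in *fsm*, and Bra023961 at 52.1% and 51.1%, while their levels differed 27.9-fold and 41.2-fold. Coverage differed more between the lines for Bra032958, at 73.4% in FT and 67.4% in *fsm*, and Bra006291 ranged from 57.3% to 83.2% within *fsm*. Bra006527, an integral membrane family gene, was at 50.2%, 50.9% and 70.3% in F1, F2 and F4 and at 46.2% to 46.6% in *fsm*. Consecutive identifiers occurred for 4 pairs of members. They were Bra001503 with Bra001504 at 16.4-fold and 16.5-fold, Bra010872 with Bra010873 at 17.2-fold and 16.2-fold, Bra032958 with Bra032959 at 16.3-fold and 22.3-fold, and Bra033060 with Bra033061 at 19.1-fold and 17.3-fold. Their positions in the genome were not used here, so the identifiers alone are given.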

How the data were processed

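RNA of flower buds of 'FT' (libraries F1, F2 and F4) and *fsm* (M1, M2 and M3) was sequenced as paired ends. The authors aligned reads to version 1.5 of the Chinese cabbage genome with SOAP2 and deposited, for each gene with a read, a read count (named unique reads in the deposited header), the RPKM value and a coverage in percent (treated here as a score). Genes not listed in a library were set to 0. All 35616 coding lengths were multiples of 3, so they hold no untranslated regions, and RPKM of short genes rests on few bases. The study called changed genes with DESeq, whose table was used for protein descriptions only, with GO terms from a shortened table. The members and gene lists were chosen with earlier results of these data known.

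Members were found on the deposited RPKM means. Counts of all genes were fitted with edgeR 4.0.16 in R 4.3.3 (TMM scaling, quasi-likelihood test, no filter, Benjamini-Hochberg adjustment, adjusted p of at most 0.001, absolute log2 fold change of at least 4), and the fit was tested on simulated data. limma 3.58.1 and DESeq2 1.42.0 served as alternatives. A standard error is the absolute log2 fold change over the root of its F value. Role groups were assigned by words in the descriptions, first match in a set order. Named were the 10 members highest in FT, the 10 with the largest fold, up to 3 and 2 such members of each role, genes next to the limits, consecutive identifiers and genes that share a description. Other members are given as examples. The reference at hand does not use these identifiers, so no sequence or coordinate is printed. Same-numbered libraries were not stated to be paired.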

Additional observations from a re-analysis of the deposited data

How the results depend on the processing

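The count of 164 members followed its limits, with 100 members at a least FT level of 100 RPKM, 360 at a limit of 1/8 and 25 at a limit of 1/32. Without 1 library at a time the rule gave 151 to 173 genes, of which 151 to 164 were among the 164. Rescaling RPKM by TMM kept 150 of the 164 and by DESeq2 size factors 151. The median log2 ratio of the members, -4.47, became -4.20 with a pseudocount of 1 RPKM and -4.28 for the 58 members with a mean of at least 100 RPKM over all 6 libraries. Their share by summed RPKM was 3.27% in FT and 0.147% in *fsm*. The 835 genes with fewer reads in *fsm* became 441 with a prior count of 2, 161 with limma on log2(RPKM + 1) and 486 with limma on log2(RPKM + 0.1), of which 441, 161 and 469 were among the 835. The RPKM pseudocounts and prior counts shrink folds of low genes by construction. Without 1 library they ranged from 726 to 807. Numbers 1 and 2 occur in both lines. The fit with a replicate block over those 4 libraries called 781 genes, of which 651 were among the 835, and 149 members. Same-numbered libraries deviated together with r = -0.0505 and 0.0657 over 25839 genes, so the numbers were not taken to pair the libraries. Of 540 values of 60 named genes under alternatives, 537 moved by less than their SD and none reversed. Most of the alternatives left out 1 library, which can hardly move a mean by more than that SD. The named genes lay inside or next to the limits on the drop, so a reversal was hardly possible. Nothing is therefore read from these counts. Members with few *fsm* reads are limited by depth.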
